A study of Mus musculus with 25 samples.

Results

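The myogenic regulatory factors are 4 genes, Myod1, Myf5, Myf6 and Myog, and they were taken by name from the RefSeq records of the mouse build mm10 (GRCm38.p6). All 4 matched a record, out of 20665 autosomal protein-coding records. For each gene the length covered by H3K27me3 peaks was measured over the record and over a window made of the record and 5 kb on either side. H3K27me3, trimethylation of lysine on the tail of histone H3, is the mark that Polycomb repressive complex 2 (PRC2) places on silenced developmental genes.

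The peaks came from a mouse study of how Polycomb target genes keep a memory of their transcription, with 25 libraries in 13 groups. Neural progenitor cells (NPC), wild type and derived from embryonic stem cells, gave 6 H3K27me3 libraries by CUT&RUN, with 2 each for untreated cells, cells given UNC1999 (2 uM) together with A395 (4 uM), which inhibit PRC2, and cells after both were washed out. Mouse embryonic fibroblasts immortalized with c-myc, as lines A (C2) and B (C26), gave 12 H3K27me3 libraries by ChIP-seq. In each line 2 were wild type, 2 were Ezh2 -/- and 2 had Ezh2 restored, by retroviral pMSCV-Ezh2 in line A and by endogenous rescue of a reversible Ezh2 -/- allele in line B. A further 7 libraries of line A (RNA polymerase II, H3K4me3, H3K36me3 and 1 input) carry the genotype Ezh2 -/- in the labels. Their titles name EZH2, so the genotype of these libraries is unsure. The labels do not give a sex, age or strain for the cells, nor say whether a line is 1 clone.

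The files analysed were 3 peak lists, 1 for each cell system, and they hold positions only. The lists are called MEF A, MEF B and NPC here, after the fibroblast line or cell type they describe. MEF A held 86235 peaks over 276.2 Mb, MEF B 81972 peaks over 235.7 Mb and NPC 44807 peaks over 136.9 Mb. The depth behind them is unknown, there is no value per library, and loss, rescue, inhibition and washout could not be compared. No test between lists was possible, the assay and the cell type change together between fibroblasts and NPC, and the part of each in the result cannot be told apart. A place without a peak is a place where none was called, not one shown to lack the mark. The neural progenitor genes followed the labelled cell types, and the fibroblast genes separated the lists little. Peaks lay in the windows of 7 of 8 neural progenitor genes in MEF A and 8 of 8 in MEF B, against 2 of 8 in NPC, where Sox2, Sox1, Nes, Pax6, Fabp7 and Olig2 had 0 bp covered. Of 10 fibroblast genes, 1 had a peak in MEF A, 0 in MEF B and 2 in NPC. The NPC peaks covered 57.9% of the window of Pdgfrb and 0.90% of that of Fn1. Of all genes, 40.2% had a peak in the window in MEF A, 40.9% in MEF B and 31.9% in NPC.

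The myogenic regulatory factors are basic helix-loop-helix (bHLH) transcription factors that pair with E proteins, bind E boxes and switch cells to the skeletal muscle fate. Myf5 and Myod1 commit progenitors to muscle, Myog drives their differentiation into fibres, and Myf6, also called Mrf4, acts in both steps. Myod1 is also known for turning cultured fibroblasts into muscle cells when it is forced on. All 4 are silent in most cells outside the muscle lineage, and silent lineage regulators of this kind are common targets of PRC2.

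The region before the start of transcription is shown because H3K27me3 is often found at such regions. Of the 4 genes, 2 matched the RefSeq promoter entries (GRCm38.p6), Myog and Myf5, and Myod1 and Myf6 are named only. The 250 bases before the start lie at chr1:134289754-134290003 on the plus strand for Myog and at chr10:107486135-107486384 on the minus strand for Myf5, where the entry's start falls inside the longer gene record. Sequences run 5′ to 3′. Capitals mark CANNTG, the E box bound by bHLH factors, and CTANNNNTA, searched on both strands. The latter is a loose form of the site of Mef2 factors, since N stands for any base.
Myog: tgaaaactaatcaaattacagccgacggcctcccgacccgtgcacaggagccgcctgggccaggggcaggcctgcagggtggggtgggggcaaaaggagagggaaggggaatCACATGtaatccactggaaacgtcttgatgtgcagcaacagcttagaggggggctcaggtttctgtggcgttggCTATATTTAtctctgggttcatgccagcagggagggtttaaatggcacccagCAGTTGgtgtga
Myf5: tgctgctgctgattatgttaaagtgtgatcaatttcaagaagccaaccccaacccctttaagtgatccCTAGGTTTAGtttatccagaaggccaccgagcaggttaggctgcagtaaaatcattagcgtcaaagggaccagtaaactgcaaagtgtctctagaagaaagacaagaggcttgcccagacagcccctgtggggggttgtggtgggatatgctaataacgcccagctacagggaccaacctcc
MEF A peaks covered all 250 bases before Myog, while MEF B and NPC peaks covered 0. No list covered a base of the Myf5 sequence. Among all 31396 autosomal promoter entries, 14.9% met a MEF A peak, 14.9% a MEF B peak and 9.56% an NPC peak. The Myog sequence held 2 E boxes, CACATG with its first base 138 bases before the start and CAGTTG 12 bases before it, and 66.1% of all entries held at least 1. It also held CTATATTTA 64 bases before the start. The Myf5 sequence held no CANNTG and 1 stretch, CTAGGTTTAG, that matched CTANNNNTA on both strands. It thus also met the longer form of that pattern with a closing G. Its middle bases are GGTT, and a match to so loose a pattern does not show a Mef2 site. Of all entries 18.8% held CTANNNNTA and 3.24% held the longer form, which the shorter one contains. Neither sequence held CAGCTG or TATAAA. Myog had 7 CpG and a ratio of observed to expected CpG of 0.37, Myf5 had 3 CpG and a ratio of 0.20, and the medians over all entries were 6 CpG and a ratio of 0.38. By this measure the Myog sequence stood near the middle of all promoters, with fewer CpG in 53.2% of entries, and the Myf5 sequence in the lower part, with fewer in 28.7%.

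H3K27me3 peaks lay over Myod1 and around Myog in both fibroblast lines, whereas Myf5 and Myf6, which lie side by side, were almost free of peaks. In NPC a peak reached the window of Myod1 and no other. Within the window, 2 of the 4 genes had a peak in MEF A (Myod1 and Myog), against 40.2% of all genes. All 4 had one in MEF B, against 40.9% of all genes, but Myf5 and Myf6 met the same peak. In NPC 1 of the 4 had one, against 31.9% of all genes. With 4 genes, these MEF A and NPC counts lie as near the share in all genes as a count of 4 permits. None of the 4 was without a peak in every list, as 44.8% of all genes were, and 0 of the 4 had one in MEF A alone, as 4.55% did. Over the record itself, Myod1 and Myog met a peak in MEF A (28.4% of all genes) and in MEF B (28.2%), and 0 of 4 did in NPC (22.3%). A stricter rule, at least 50% of the window covered, was met by Myod1 and Myog in MEF A (9.98% of all genes), by Myog in MEF B (9.71%) and by 0 of 4 in NPC (3.91%).

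**Figure D1:**
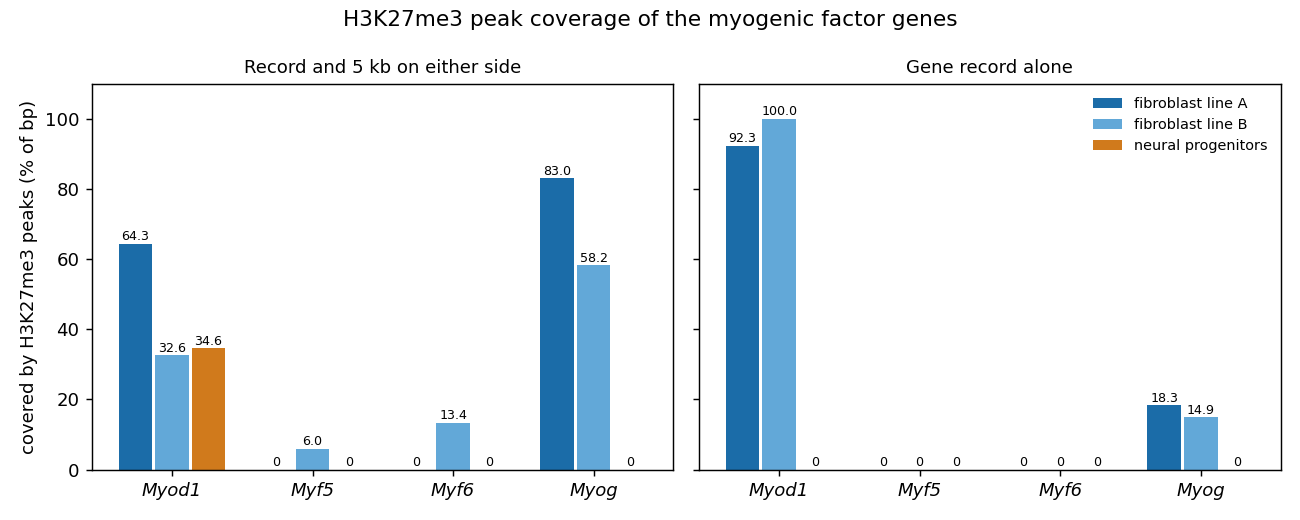
Share of bp covered by H3K27me3 peaks (%) at each gene, for the record and 5 kb on either side (left) and for the record alone (right). Bars are single values from 1 peak list each, without error. Myod1 and Myog are covered in both fibroblast lists, and Myf5 and Myf6 reach at most 13.4%. Over the record alone Myod1 stands above the rest in the fibroblast lists, and no gene is covered in NPC.

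Myod1 (NCBI gene 17927, chromosome 7, 46376474 to 46379092, 2619 bp) was the one gene of the group with a peak in its window in all 3 lists, a pattern seen in 19.5% of all genes. Of its 12619 bp window, 8.12 kb (64.3%) was covered in MEF A, 4.11 kb (32.6%) in MEF B and 4.37 kb (34.6%) in NPC. These shares exceeded those of 93.2%, 86.2% and 93.7% of all genes in the same lists. The lists differed in which part was covered. The record itself was covered over 92.3% in MEF A, 100% in MEF B and 0% in NPC.

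The peak that holds Myod1 spans 10863 bp in MEF A (46368029 to 46378891) and lies mainly on the side of lower coordinates. In MEF B the record lies inside a peak of 3823 bp (46376112 to 46379934), which extends past both of its ends. With gaps under 3 kb closed, the region over Myod1 spanned 25.5 kb in MEF A, wider than 91.6% of joined regions, and 5.9 kb in MEF B, wider than 68.9%. The nearest NPC peak spans 6261 bp (46369579 to 46375839) and stops 634 bp short of the record. All of the NPC coverage in the window lay inside MEF A peaks, while MEF B and NPC shared 286 bp there, which is 6.96% of the MEF B and 6.55% of the NPC coverage. MEF A and MEF B shared 3254 bp, 40.1% of the MEF A and 79.2% of the MEF B coverage.

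Out to 50 kb, NPC peaks stood on one side of Myod1. They covered 31.4 kb of the 50 kb at lower coordinates and 0 kb of the 50 kb at higher coordinates. MEF A peaks covered 29.4 kb and 13.4 kb of these sides, and MEF B peaks 8.60 kb and 10.9 kb. MEF A and NPC were thus denser below Myod1, and MEF B was of similar density on either side. The neighbour below, Otog (the inner ear protein otogelin, 65.0 kb away), was covered over 70.8% of its window in MEF A, 12.1% in MEF B and 16.3% in NPC. Above, Kcnc1, a voltage-gated potassium channel gene 17.1 kb away, was covered over 27.9%, 19.2% and 0%. Farther out, the window of Ush1c was covered over 48.4%, 7.54% and 13.9%, and that of Sergef over at most 2.91% in any list.

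Chromosome 7 differed between the lists. It held 2535 MEF B peaks and 6012 NPC peaks, and 24.8% of its genes had a peak in the window in MEF B, 34.5% in MEF A and 47.2% in NPC. So a peak near a gene was rarer on this chromosome than over all genes in the fibroblast lists, most of all in MEF B, and more common in NPC. The part of this in the Myod1 values was not tested.

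**Figure D2:**
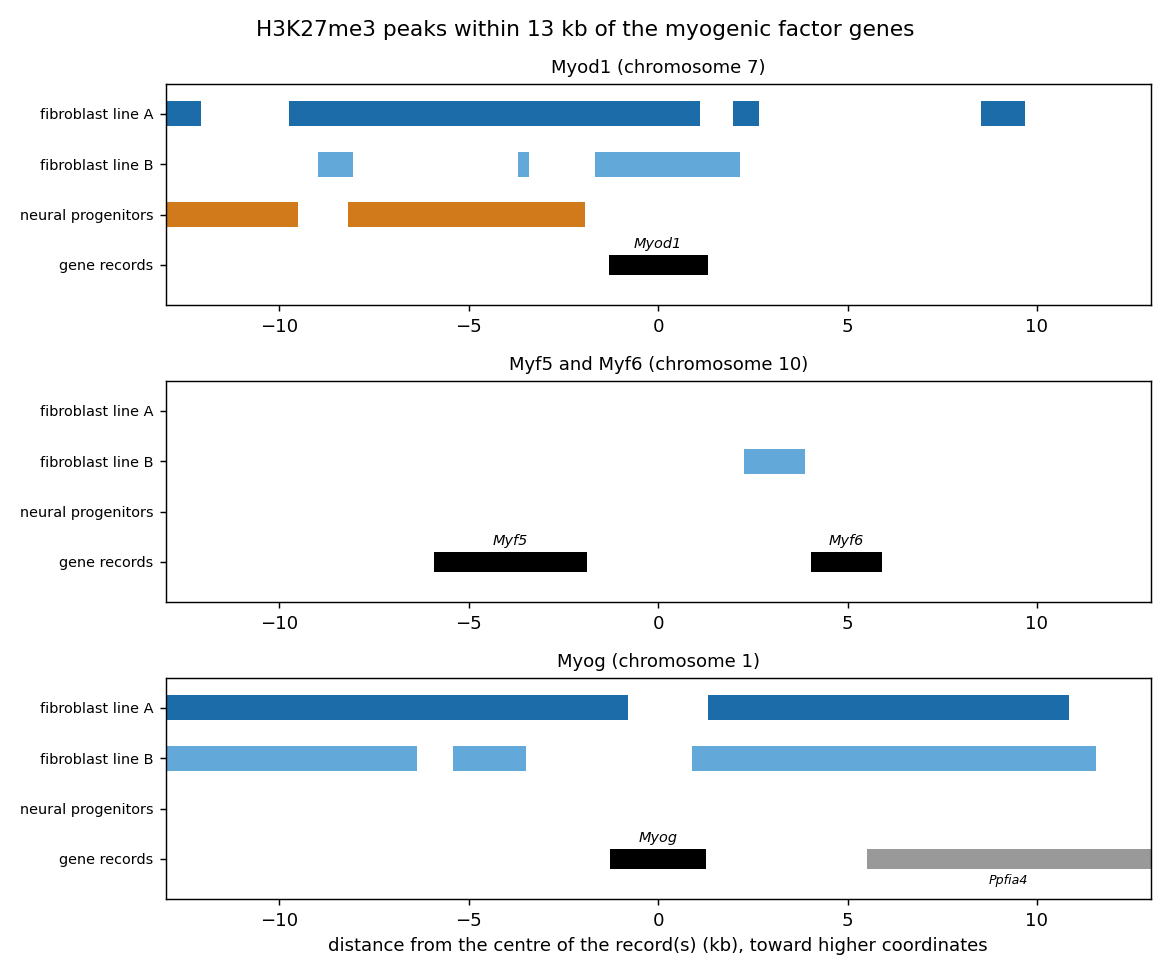
H3K27me3 peaks (coloured bars) and gene records (black, group members; grey, neighbours) within 13 kb of each locus, against distance (kb) from the centre of the record or, for Myf5 and Myf6, of the pair. The Myod1 record lies under a peak in both fibroblast lists and beside one in NPC, most of the Myog record lies in a gap between peaks, and 1 MEF B peak lies between Myf5 and Myf6.

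Myog (gene 17928, chromosome 1, 134290004 to 134292548, 2545 bp) had the largest share of its window covered among the 4 genes in both fibroblast lists and was uncovered in NPC. This order rests on the flanks: with 2 kb on either side Myod1 stood above Myog in MEF A (77.3% against 67.4%) and MEF B (57.8% against 36.4%), as it did over the record alone. Of its 12545 bp window, 10.4 kb (83.0%) was covered in MEF A, 7.31 kb (58.2%) in MEF B and 0 kb in NPC. The fibroblast shares exceeded those of 96.9% and 92.1% of all genes. Chromosome 1 was richer in peaks than all genes together, with a peak in the window at 50.9% of its genes in MEF A, 48.8% in MEF B and 35.1% in NPC, and the part of this in the Myog values was not tested. A peak in both fibroblast lists and none in NPC was found at 12.5% of all genes. The nearest NPC peak lay 47.5 kb away, and 39.7% of all genes were at least as far from one.

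The coverage lay around the Myog record more than on it. In MEF A a peak of 18271 bp (134272199 to 134290469) covered the first 466 bp of the record and the next peak began 55 bp after its end, so that 18.3% of the record was covered. In MEF B a peak of 10667 bp (134292169 to 134302835) covered the last 380 bp (14.9%), and the nearest peak before the start ended 2219 bp short of it. The start of transcription was therefore inside a peak in MEF A and outside one in MEF B. In the window the fibroblast lists shared 6872 bp, 66.0% of the MEF A and 94.0% of the MEF B coverage.

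Myog stood in a wide marked region in fibroblasts. Peaks of MEF A covered 78.0% of the record and 50 kb on either side, more than at 98.9% of genes, against a median of 5.56% over all genes. MEF B peaks covered 56.8%, more than at 95.7% of genes (median 5.21%), and NPC peaks covered 0.93% (median 1.32%). When gaps under 3 kb between peaks were closed, the MEF A region over Myog spanned 200.9 kb (134129945 to 134330878) and was wider than 99.9% of the 38821 joined regions of that list. It met 6 coding records, Chit1, Chil1, Mybph, Adora1, Myog and Ppfia4. In MEF B the joined region that touched Myog spanned 15.7 kb and met Myog and Ppfia4. The gap before Myog exceeded 3 kb in MEF B, and the peaks below Myog were joined apart from it.

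Of the 4 nearest records, 3 were, like Myog, covered most in MEF A and least in NPC. Mybph, a myosin-binding protein gene, was covered over 100% of its window in MEF A, 52.1% in MEF B and 0% in NPC. Adora1, the gene of an adenosine receptor, was covered over 90.9%, 79.9% and 8.37%, and Ppfia4 (liprin alpha 4) over 58.3%, 29.2% and 0%. Tmem183a, beyond Ppfia4, differed and had 0 bp covered in either fibroblast list and 9.67% in NPC.

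Myf5 (gene 17877, chromosome 10, 107482908 to 107486927, 4020 bp) and Myf6 (gene 17878, 107492848 to 107494723, 1876 bp) lie 5.9 kb apart, and neither record met a peak in any list. The only peak in either window was a MEF B peak of 1595 bp (107491092 to 107492686) between the genes, 161 bp from Myf6 and 4164 bp from Myf5. It gave Myf6 a coverage of 13.4% of the window and Myf5 one of 5.96%. A peak in MEF B alone was seen at 6.28% of all genes, and these 2 genes count once for it, since they share the peak.

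In MEF A the nearest peak lay 28.7 kb from Myf5 and 38.6 kb from Myf6. In NPC it lay 209.2 kb and 207.1 kb away, and 13.2% and 13.4% of all genes were at least as far from an NPC peak. Out to 50 kb from Myf5, MEF A peaks covered 7.36%, MEF B peaks 2.32% and NPC peaks 0%. The MEF A peaks there were all at lower coordinates, toward Lin7a, a cell-junction scaffold gene with 14.3% of its window covered in MEF A, 1.62% in MEF B and 3.10% in NPC. On the other side Ptprq, a receptor phosphatase gene of the inner ear, was covered over 6.89%, 0% and 0.56%. The next records out, Acss3 and Otogl, were covered over at most 2.42% in any list. Chromosome 10 as a whole was not poor in fibroblast peaks, with 42.2% of its genes having a peak in the window in MEF A and 42.9% in MEF B. In NPC the share was 27.8%.

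**Figure D3:**
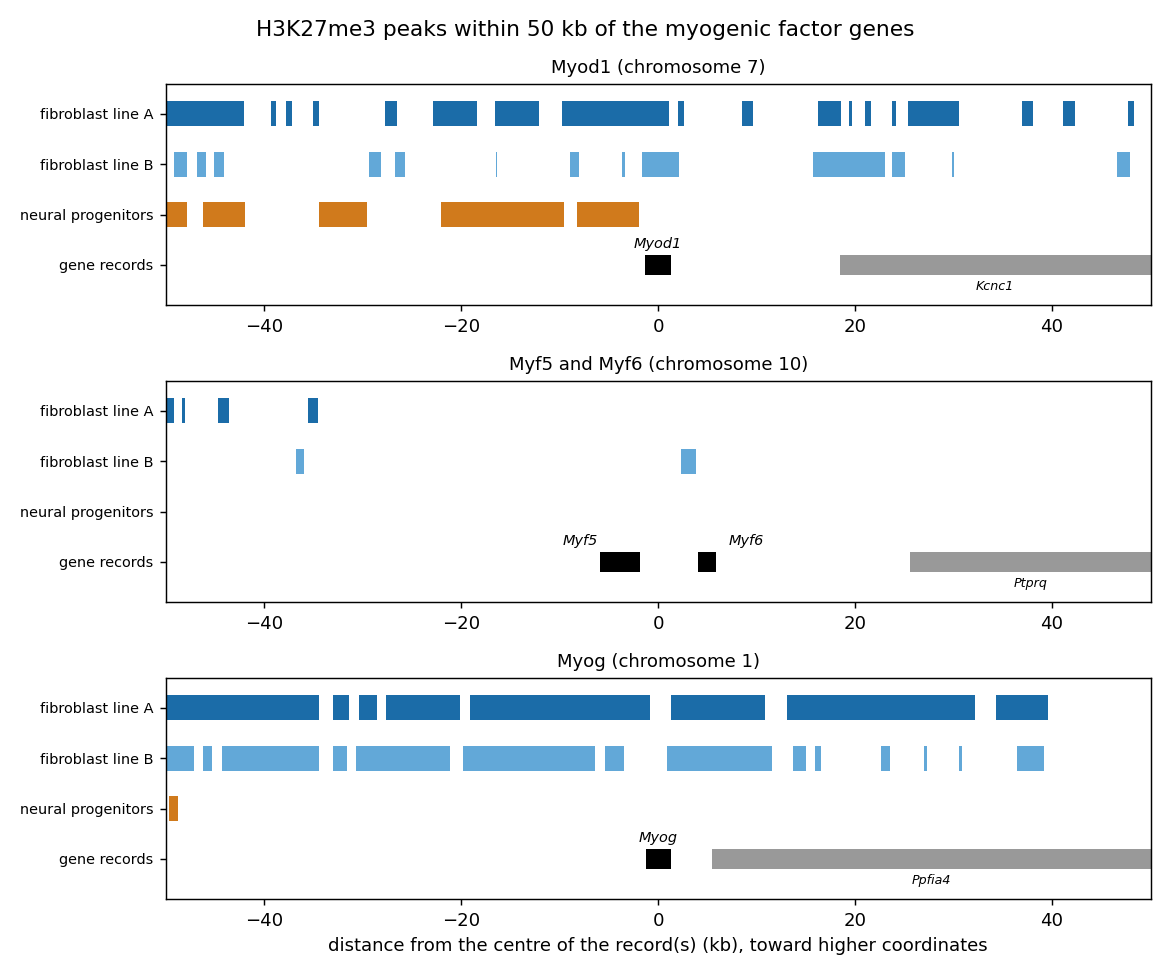
H3K27me3 peaks (coloured bars) and gene records (black, group members; grey, neighbours) within 50 kb of each locus, against distance (kb) from the centre of the record or pair. Peaks fill most of the Myog region in both fibroblast lists, NPC peaks near Myod1 lie on the side of lower coordinates, and the Myf5 and Myf6 region holds few peaks in any list.

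With 5 kb on either side, the order by share covered in MEF A was Myog, Myod1, then Myf5 and Myf6 together at 0. In MEF B it was Myog, Myod1, Myf6 and Myf5. In NPC Myod1 stood alone. Myod1 came before Myog with 2 kb flanks and over the record. No spread over libraries was available, so no neighbours in these orders could be told apart by a test. Genes with the nearest values over the 3 lists were found by the largest difference in covered share in any list. For Myog these were Kif1a (1.27 points), Capn8 (2.29) and Plpp7 (2.68), and 18 genes outside its region lay within 5 points. For Myod1 they were Theg (4.63 points), Adcy4 (5.03) and Slc6a21 (5.07), and 1 gene lay within 5 points. For Myf5 they were Kbtbd3, Slc37a3 and Depdc7 and for Myf6 1700074P13Rik, Pacsin3 and Adgre5, with 1481 and 374 genes within 5 points. Likeness over 3 lists rests on 3 values a gene.

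Genes that act above the myogenic factors in muscle precursors varied widely in coverage. Of 13, 8 had a peak in the window in MEF A, 10 in MEF B and 6 in NPC (40.2%, 40.9% and 31.9% of all genes), and the median share covered was 49.3%, 56.3% and 0%, against a median of 0% over all genes in each list. Pax3 and Pax7, the paired-box factors of muscle progenitors, differed between lists. Pax3 was covered over 93.4% of its window in MEF A, 10.7% in MEF B and 77.8% in NPC. Pax7 was covered over 33.9%, 47.1% and 0%. Eya2, a transcriptional cofactor of muscle precursors, was covered over 75.6%, 56.3% and 4.07%. Six4, a homeobox factor of muscle precursors, and Eya1, a relative of Eya2, had 0 bp covered in all 3 lists.

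Among the partners and inhibitors of the myogenic factors, 2 of 13 genes had a peak in MEF A, 4 in MEF B and 2 in NPC, beside the same 40.2%, 40.9% and 31.9% of all genes. The median share covered was 0% in each list, as it was over all genes. The E protein genes Tcf4 and Tcf12 and the Mef2 genes Mef2a and Mef2d had 0 bp covered in all 3 lists. Mef2c, a Mef2 factor of muscle and neurons, was covered over 48.1% of its window in MEF B and over 0% in the other lists. Mef2b was covered over 9.50% in MEF A and 32.1% in MEF B, and Mdfi, an inhibitor of myogenic bHLH factors, over 37.9% in MEF B alone. Id4, an inhibitor that keeps E proteins from DNA, was covered over 62.2%, 70.5% and 49.3%, in MEF A, MEF B and NPC.

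Of 22 muscle genes that act downstream, 16 had a peak in MEF A, 15 in MEF B and 12 in NPC, again beside 40.2%, 40.9% and 31.9% of all genes. The medians were 20.2%, 13.7% and 6.36%, against 0% over all genes. Myh3, an embryonic myosin gene, was covered over 72.7%, 73.0% and 58.4%, and Myl1, a myosin light chain gene, over 77.0%, 64.9% and 44.5%. Myh8, the perinatal myosin gene, was covered over 100% in MEF A, 3.57% in MEF B and 56.1% in NPC, and Mymk, whose product fuses myoblasts, over 87.4%, 4.34% and 100%. Mymx, the other fusion gene, had 0 bp covered in each list, as did Musk, Rapsn and Chrne of the neuromuscular junction.

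Set beside other bHLH genes, the myogenic factors had a lower median share covered than the proneural factors in each list, and the difference was not tested. Myf5 and Myf6, which are neighbours, enter as 2 genes, and the MEF A median falls between their 0% and the 64.3% of Myod1. The medians of the myogenic factors were 32.2% in MEF A, 23.0% in MEF B and 0% in NPC. Those of 11 proneural factors were 65.3%, 100% and 90.3%, and Neurog2 and Neurod2 were covered over their whole windows in all 3 lists. Those of 10 early mesoderm and cardiac factors were 46.0%, 13.6% and 0%. Among these Tcf15, of the somites, was covered over 100%, 100% and 0%, Hand1, of the heart and placenta, over 72.4%, 53.5% and 0%, while Scx, of tendons, and Lyl1, of blood, had 0 bp in each list. Tal1, of blood and vessels, was covered over 90.1%, 86.7% and 13.3%, and Hand2, of the heart and limb, over 100%, 46.5% and 39.7%. Of these 4 covered genes, Tcf15 and Hand1 had, like Myog, 0 bp in NPC, and Tal1 and Hand2 did not.

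**Figure D4:**
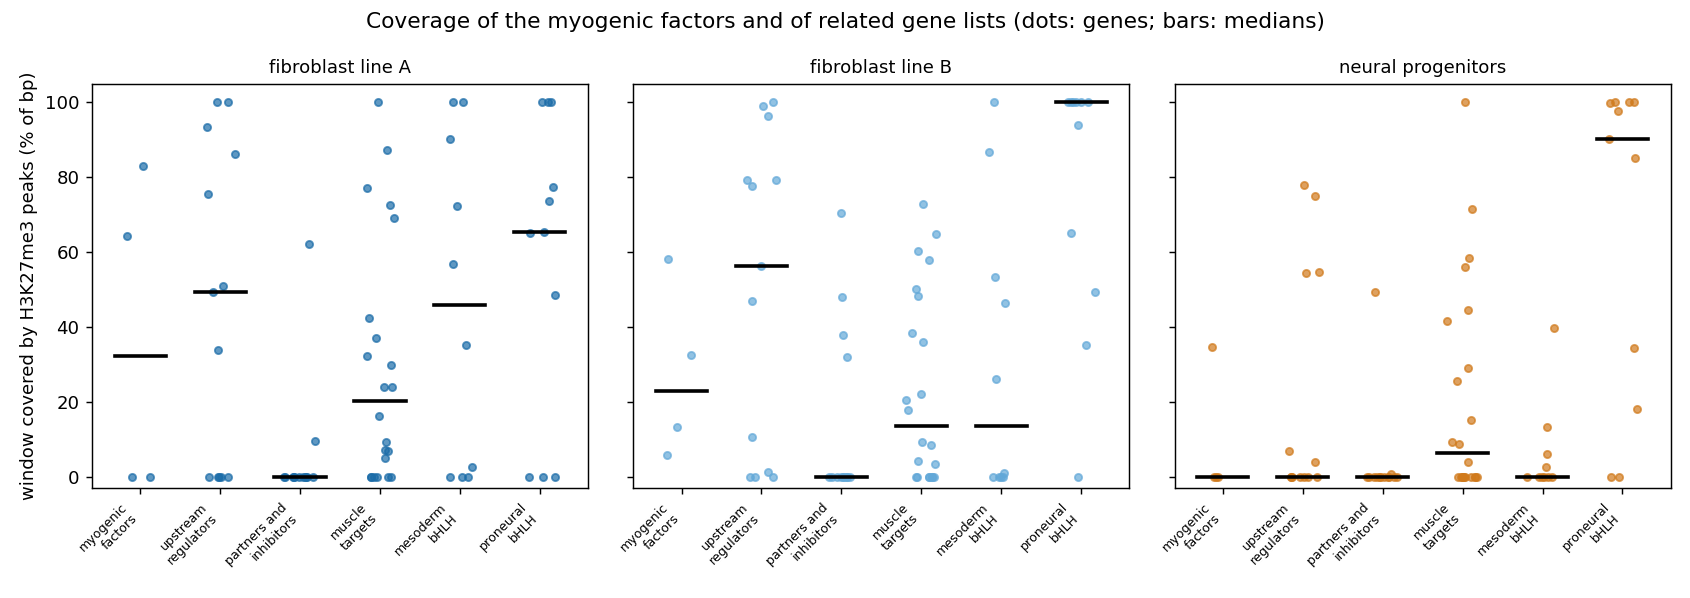
Share of the window covered by H3K27me3 peaks (%) for each gene (dots, spread sideways for visibility) and the median of each list of genes (black bars), in the 3 peak lists. The partners and inhibitors have a median of 0 in each list, and the proneural bHLH factors have the highest median in each list, with 100% in MEF B.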

How the data were processed

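Per the labels, H3K27me3 was profiled with the antibody clone C36B11. The authors deposited the 3 peak lists as chromosome, start and end in bp with no header, height, score or p-value, and each belongs to the series and not to a library. The builds mm10 and dm6 and the tools MACS2 2.1.1.20160309, Bowtie2 2.2.9, deepTools and Picard are listed in the submitters' processing notes without saying what each was used for. These sources do not give the peak threshold, the control or the pooling of libraries. The names of the lists give the cell system and not a sample, so the libraries behind each are unsure.

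Starts were read as 0-based and are printed 1-based. Covered bp were summed over each of 20665 autosomal protein-coding RefSeq records (GRCm38.p6) with Python 3.11.15 and pandas 2.3.3, and the sums were checked on simulated peaks. A gene had a peak where at least 1 bp of its window was covered. The record table gives no strand or exons. All members and lists of genes were chosen with earlier results of these data known. The genes named besides the members were, per list of genes, up to 4 with the most covered bp and up to 4 with none, the 2 nearest records on each side of a member, and the 3 genes most alike. Some genes that this rule takes are not reported here. The planned motifs were the E box and its form CAGCTG, the longer Mef2 motif and TATAAA, and the shorter Mef2 core was added after the sequences were seen. The alternatives were other windows, wider peaks, joined peaks and the reading of starts.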

Additional observations from a re-analysis of the deposited data

How the results depend on the processing

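Counts of genes were recomputed under 7 alternatives, and 61 of 70 stayed within 1.5 times the value reported. The other 9 came with smaller windows. With the record alone, 2 of 4 genes had a peak in MEF B (28.2% of all genes), 0 in NPC (22.3%) and 0 in all 3 lists. By the same rule 2 had one in both fibroblast lists and not NPC (9.1% of all genes) and 0 in MEF B alone (4.34%). No list had a peak at 2, as at 60.6% of all genes, and 1 (Myod1) had at least 50% covered in MEF A (10.6%). Of all genes, 2665 (12.9%) had a peak in all 3 lists over the record alone, against 4028 (19.5%) in the window. With 2 kb on either side, 1 gene had a peak in MEF B alone (5.35% of all genes) and 1 (Myf5) in no list (53.9%). Also with 2 kb, Myod1 and not Myog had at least 50% covered in MEF B (10% of all genes). With 10 kb, peaks at least 1 kb wide, the widest 44807 peaks of each list, joined peaks or 1-based starts, each of these counts was as reported. Covered shares per gene were held to another rule, an exact binomial interval around the reported share. It treats each bp as independent, which neighbouring bp are not, so small changes can fall outside it. By this rule 29 of 84 shares moved, with other windows, wider peaks or joined peaks. For Myod1 the shares ranged from 56.3 to 92.3% (MEF A), 22.4 to 100% (MEF B) and 0 to 35.6% (NPC). For Myog they ranged from 18.3 to 100% (MEF A) and 14.9 to 76.3% (MEF B). The order of Myod1 and Myog turned in both fibroblast lists with 2 kb and with the record alone. The depth behind the lists is unknown, so a missing peak has no limit. No paired analysis was possible because the result comes from no test and no file gives values per replicate.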

Other observations

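The microRNAs of skeletal muscle, which act downstream of the myogenic factors, had a peak in the record or 5 kb on either side at 2 of 6 records in MEF A, 2 in MEF B and 3 in NPC. The shares over all protein-coding genes were 40.2%, 40.9% and 31.9%. The microRNA windows span 10068 to 10119 bp, while gene windows hold a whole gene record besides the flanks, so these shares are not a like comparison. These 6 records were chosen after the values of the myogenic factors were seen. They lie in pairs with overlapping windows, so they are not 6 separate places. At the Mir1a-1 and Mir133a-2 cluster on chromosome 2, the window of Mir1a-1 was covered over 92.3% in MEF A, 100% in MEF B and 100% in NPC, and that of Mir133a-2 over 76.0%, 59.6% and 46.1%. Mir1a-2 and Mir133a-1 on chromosome 18 had 0 bp covered in each list. Mir206 on chromosome 1 had 0 bp in each list as well, and the adjacent Mir133b had 14.7% of its window covered in NPC and 0% in both fibroblast lists.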
